A study of Mus musculus with 2 samples.

Results

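The genes described here are Spib and 9 other members of the ETS family of transcription factors that are expressed in gut epithelium: Elf1, Elf2, Elf3, Elf4, Ehf, Ets2, Gabpa, Etv5 and Etv6. They were chosen by gene symbol and are 10 of 17134 genes in the table. RNA was sequenced from tuft cells, rare chemosensory cells of the gut epithelium, sorted from the small intestine of naïve mice as cells positive for EpCAM and Siglec-F. One library (Spib_KO) came from mice of genotype Spibfl/flVillin-cre, in which a Cre recombinase expressed in intestinal epithelium acts on floxed Spib, and the other (WT) from mice labelled Spib+Villin-cre, so both groups carry Villin-cre. How many mice were pooled, their age, and which part of Spib the floxed allele removes are not stated in the labels. Cells outside the epithelium do not express Villin-cre and keep Spib. Each genotype has 1 library, so no difference below has a replicate check, and sizes with counting intervals are given in place of p-values.

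ETS proteins share a DNA-binding domain whose recognition helix lies in the major groove of DNA and reads a GGAA core, with a pair of conserved arginines touching the guanines. The family differs mainly outside this helix, in partner proteins and in where each gene is expressed. Spib encodes Spi-B, which works beside its relative PU.1 in B cells and is required for the maturation of intestinal M cells, where RANK signalling induces it. Elf3 and Ehf belong to the epithelium-specific branch of the family, and mice without Elf3 have a disordered small intestinal epithelium.

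The coding bases of that helix are printed here because all 10 genes encode it, and each of the other 9 was compared with Spib alone. Each line gives 48 bases of the coding strand, 5′ to 3′, from the GENCODE M21 transcripts on GRCm38, and the capitals mark the codons of the conserved arginine pair.
Spib: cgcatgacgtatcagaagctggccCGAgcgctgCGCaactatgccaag
Elf1: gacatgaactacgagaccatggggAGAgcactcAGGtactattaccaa
Elf2: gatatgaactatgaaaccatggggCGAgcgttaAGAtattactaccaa
Elf3: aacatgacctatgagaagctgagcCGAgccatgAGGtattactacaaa
Elf4: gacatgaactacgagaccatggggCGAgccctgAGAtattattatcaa
Ehf: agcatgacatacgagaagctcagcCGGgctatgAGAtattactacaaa
Ets2: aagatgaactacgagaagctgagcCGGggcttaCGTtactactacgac
Gabpa: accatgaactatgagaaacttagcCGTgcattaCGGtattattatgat
Etv5: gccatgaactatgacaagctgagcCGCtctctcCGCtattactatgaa
Etv6: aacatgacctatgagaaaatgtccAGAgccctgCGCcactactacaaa
Spib shared 25 to 34 of these 48 bases with the other 9 genes, fewest with Elf2 and most with Etv6. The stretch lies within 1 exon in 4 genes, at chr7:44528040-44528087 for Spib (minus strand), chr16:95718959-95719006 for Ets2 (plus strand), chr16:22386775-22386822 for Etv5 (minus strand) and chr6:134263028-134263075 for Etv6 (plus strand). In the other 6 genes an intron splits it, and its outer ends lie at chr14:79570881-79573184 for Elf1 (plus strand), chr3:51257763-51259206 for Elf2 (minus strand), chr1:135254368-135254959 for Elf3 (minus strand), chrX:48417012-48417905 for Elf4 (minus strand), chr2:103266859-103267001 for Ehf (minus strand) and chr16:84857538-84860387 for Gabpa (plus strand).

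Reads on genes numbered 17228665 in Spib_KO and 17925421 in WT. Levels between libraries are given as normalised read counts (CPM, the count over the library total after edgeR's TMM scaling) and levels between genes as the TPM the authors deposited, which is per transcript length. The log2 ratio is Spib_KO over WT with a 95% interval that covers counting error alone, because each genotype has 1 library. PCR copies of 1 molecule cannot be recognised in these libraries, so the interval may be too narrow even for counting error. A gene was called higher or lower where the interval lay wholly beyond a 2-fold difference, among the 10707 genes measured, meaning that either library reached 5 CPM and 30 reads. By this rule 4.51% of measured genes were called, 2.33% higher and 2.18% lower, and the median log2 ratio of all measured genes was 0.01 with quartiles of -0.26 and 0.28. All 15 tuft cell markers in the table were measured and none was called, with Sh2d6, the most abundant, at 5096 CPM in Spib_KO and 4693 CPM in WT. Their log2 ratios ran from -0.73 for Gnat3 to 0.59 for Bmx, with 6 below 0, 9 above and a median of 0.02.

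All 10 genes were measured. Spib and Etv5 were lower in Spib_KO, none was higher, and the other 8 were not called, with log2 ratios between -0.50 and 0.57. Spib is the gene deleted by design, so 1 of the 9 genes the deletion does not target was called, beside 4.51% of all measured genes. The median log2 ratio of these 9 genes was -0.03.

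**Figure D1:**
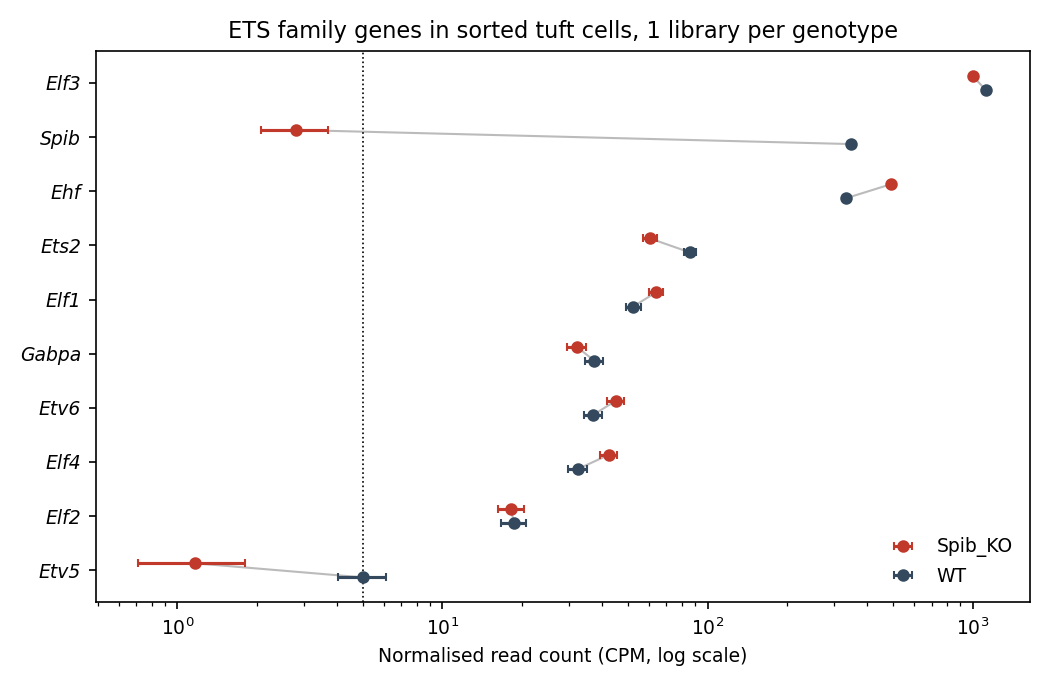
Normalised read count (CPM, log axis) of each of the 10 ETS genes in the Spib_KO library (red, upper point) and the WT library (dark, lower point), 1 library each, ordered by WT level. Bars are 95% Poisson intervals, often narrower than the point, and the dotted line marks the 5 CPM minimum. Spib was at 2.80 CPM in Spib_KO and 348 CPM in WT, while 8 of the other genes kept the points close together and Etv5 had 1.17 CPM in Spib_KO and 5.0 CPM in WT.

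Spib (gene 272382, chr7:44525995-44532087 on GRCm38.p6) had 48 reads in Spib_KO and 6266 reads in WT. Its level was 2.80 CPM (95% Poisson interval 2.06 to 3.71) in Spib_KO and 348 CPM (340 to 357) in WT. The libraries lie far apart on this gene, with a log2 ratio of -6.95 (-7.40 to -6.55). Per length, Spib held 1.18 TPM in Spib_KO and 161 TPM in WT. This placed it at rank 11263 of 17134 genes in Spib_KO and rank 937 in WT. Within the 25 ETS family genes in the table it was at rank 15 in Spib_KO and rank 2, behind Elf3, in WT.

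The remaining Spib reads can be looked at through the transcript length that the authors' values imply. A read count and an FPKM value of the same gene together fix the length the count was divided by. That length depends on the mix of isoforms, though not on it alone. For Spib it was 2964 bases in Spib_KO (2948 to 2980 given the 2 decimals of the FPKM value) and 2728 bases in WT, a ratio of 1.09. Over 10564 measured genes with 30 reads or more in both libraries the median ratio was 1.01, with 5th and 95th percentiles of 0.955 and 1.09, and 5.07% of them had a ratio as high as that of Spib or higher. Among the 534 of these genes with 30 to 100 reads in Spib_KO, as few as Spib had, that share was 10.7%. The ratio also varied with length, at 1.09 for Defa5 (220 bases in Spib_KO and 202 in WT) and 1.01 for Alpi (2135 and 2117). Both shares count short genes such as Defa5, so they do not compare Spib with genes of its own length. For the other 9 genes the ratio ran from 0.964 for Etv6 to 1.05 for Elf1.

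Genes on either side of Spib were also read. Mybpc2, a myosin-binding protein gene 1280 bases from the end of Spib, had 136 reads in Spib_KO and 129 reads in WT, a log2 ratio of 0.14 (-0.21 to 0.50). Pold1, which encodes the catalytic subunit of DNA polymerase delta and lies 657 bases upstream of the Spib start, had 625 reads in Spib_KO and 1301 reads in WT. Its log2 ratio was -0.99 (-1.13 to -0.85), short of the call. By the point estimate alone, 3.91% of measured genes were past 2-fold lower and 3.97% past 2-fold higher.

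The other genes of the SPI branch were nearly absent from both libraries. Spi1, which encodes PU.1 of myeloid and B cells, had 1 read in Spib_KO and 18 reads in WT, a log2 ratio of -3.57 with a counting interval of -9.48 to -1.44. Spic, a factor of red pulp macrophages, had 0 reads in Spib_KO and 1 read in WT. Summed over the branch, SPI transcripts made up 0.129% of the ETS family TPM in Spib_KO and 13.5% in WT, so no other SPI gene stood at the level that Spib had in WT.

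Markers of other cell types that express Spib were read beside it. Of 5 B cell markers none was measured, with a summed level of 3.44 CPM in Spib_KO and 4.33 CPM in WT. Cd79b of the B cell receptor, the highest of them in WT, had 11 reads in Spib_KO and 50 reads in WT, and Cd79a had 0 reads in Spib_KO and 7 reads in WT. Pax5, a B cell transcription factor gene and the highest of them in Spib_KO, had 37 reads in Spib_KO and 8 reads in WT. Ms4a1 had 5 reads in Spib_KO and 6 in WT, and Cd22 had 6 in Spib_KO and 7 in WT. Of 4 M cell markers 3 were in the table, with a summed level of 3.90 CPM in Spib_KO and 12.8 CPM in WT. Of the 2 measured, both of which reached 5 CPM in WT alone, 1 was lower, beside 2.18% of all measured genes. That was Sox8, at 0.233 CPM in Spib_KO and 6.56 CPM in WT. Ccl9, a chemokine gene of M cells, had 3.67 CPM in Spib_KO and 5.67 CPM in WT, and Tnfaip2 had 0 reads in Spib_KO and 10 reads in WT. Over 4 plasmacytoid dendritic cell markers the sum was 69.5 CPM in Spib_KO and 85.6 CPM in WT, of which 2 were measured and none called. Siglech had 0 reads in Spib_KO and 1 read in WT, and Tcf4, which other cells also express, had 44.0 CPM in Spib_KO and 40.3 CPM in WT. Klk1, the highest of them in WT, had 24.8 CPM in Spib_KO and 45.3 CPM in WT, and Ly6d had 12 reads in Spib_KO and 0 reads in WT. The part of such cells in the Spib reads was not tested, and in bulk samples fewer cells of a type and less RNA per cell cannot be told apart.

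Elf3, the leading ETS gene of the gut epithelium, was the most abundant ETS transcript of both libraries. It had 17156 reads in Spib_KO and 20155 reads in WT, or 999.7 CPM and 1120 CPM. The log2 ratio was -0.16 (-0.19 to -0.13), a small difference beside the quartiles of all genes. Per length it stood at 709 TPM in Spib_KO and 808 TPM in WT, at ranks 230 and 213 of all genes.

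Ehf, its epithelial relative, had 8460 reads in Spib_KO and 5992 reads in WT, or 493 CPM and 333 CPM. It was 1.48-fold higher in Spib_KO, a log2 ratio of 0.57 (0.52 to 0.61), which was above the upper quartile of all measured genes and short of the call. Elf3 exceeded Ehf by 4.79 times in TPM in Spib_KO and by 8.01 times in WT. The third gene of this branch, Elf5, a factor of mammary and other glandular epithelium that neighbours Ehf on chromosome 2, had 6 reads in Spib_KO and 0 reads in WT, and the counting interval of its log2 ratio starts at 0.30. Elf3 and Ehf together made up 88.6% of the ETS family TPM in Spib_KO and 75.7% in WT, shares of a sum that includes Spib. The 3 genes of the branch summed to 856.9 TPM in Spib_KO and 908.4 TPM in WT.

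**Figure D2:**
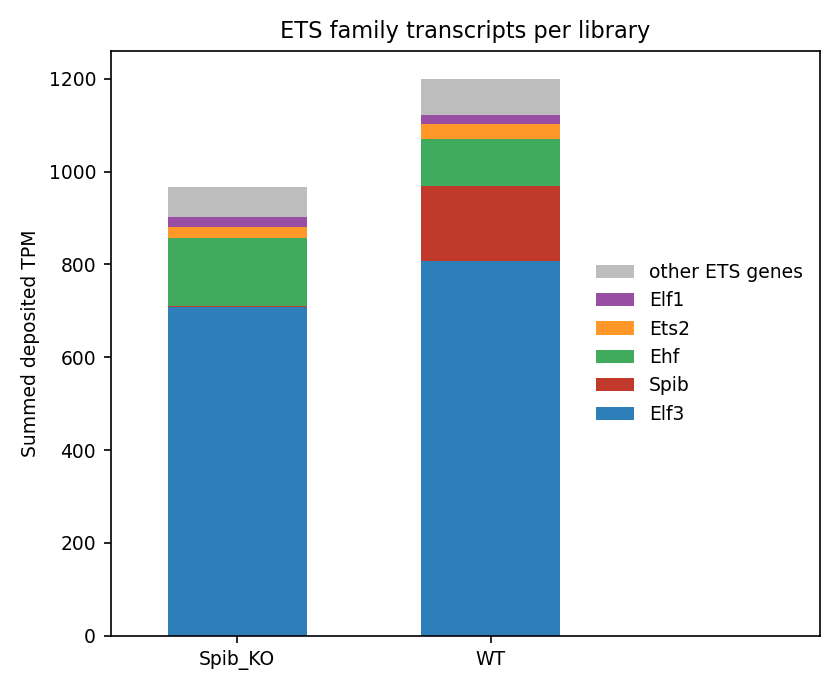
Summed deposited TPM of the ETS family genes in the Spib_KO library (left bar) and the WT library (right bar), 1 library each, stacked by gene and starting at 0. The sum was 966.8 TPM in Spib_KO and 1200.0 TPM in WT. The Spib segment, 161 TPM in WT, is reduced to a line of 1.18 TPM in Spib_KO, and the Ehf segment is wider in Spib_KO.

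The summed level of the family was 966.8 TPM in Spib_KO and 1200.0 TPM in WT. Without Spib the sums were 965.6 TPM in Spib_KO and 1039 TPM in WT. Elf3 alone held 73.3% of the family in Spib_KO and 67.3% in WT, Ehf held 15.3% in Spib_KO and 8.40% in WT, and Spib held 0.122% in Spib_KO and 13.4% in WT. These shares divide by a sum that includes Spib, so the fall of Spib alone raises those of the other genes. The share of Elf3 was higher in Spib_KO although its level was lower, at 709 TPM against 808 TPM in WT. At least 1 TPM was reached by 15 ETS genes in Spib_KO and by 17 in WT.

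The 3 genes of the ELF branch, which are known mostly from lymphocytes and blood vessels, were close in both libraries. Elf1 had 1094 reads in Spib_KO and 944 reads in WT, and it was the 1 gene of the 10 whose deposited counts were not whole. Its level was 63.7 CPM in Spib_KO and 52.5 CPM in WT, a log2 ratio of 0.28 (0.15 to 0.41). Elf4, a factor of natural killer cells and of T cell quiescence, had 726 reads in Spib_KO and 583 reads in WT, a log2 ratio of 0.38 (0.23 to 0.54). Elf2 had 312 reads in Spib_KO and 334 reads in WT, and its interval included 0 (-0.26 to 0.20). Elf1 overlaps Wbp4 in the annotation, and unstranded reads do not separate them where they overlap. Wbp4 had a log2 ratio of -0.09.

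Ets2, whose protein is activated by phosphorylation through Ras and ERK, had 1038 reads in Spib_KO and 1543 reads in WT. Its level was 60.5 CPM in Spib_KO and 85.7 CPM in WT, 1.42-fold lower in Spib_KO, with a log2 ratio of -0.50 (-0.62 to -0.39). This lies below the lower quartile of all genes and short of the call. Its relative Ets1, a factor of lymphocytes, had 0 reads in Spib_KO and 25 reads in WT, and the counting interval of its log2 ratio ends at -2.58. Ets1 sits beside Fli1 on chromosome 9, and Fli1, a factor of blood and endothelial cells, had 6 reads in Spib_KO and 21 reads in WT.

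Those leukocyte-type ETS genes, Spi1, Ets1 and Fli1, did not reach the 5 CPM minimum in either library. Over 9 marker genes of T cells and intraepithelial lymphocytes the summed level was 5.71 CPM in Spib_KO and 49.6 CPM in WT. All 4 that were measured were called lower, beside 2.18% of all measured genes. These 4 reached the 5 CPM minimum in WT alone, and a gene admitted that way can be called lower but not higher. Gzma, a granzyme gene and the most abundant of the 9, had 1.28 CPM in Spib_KO and 17.6 CPM in WT, and Cd3d and Cd4 had 0 reads in Spib_KO. Summed over 6 myeloid markers, the level was 22.1 CPM in Spib_KO and 29.2 CPM in WT, with Lyz2 lower, Csf1r at 0 reads in Spib_KO, and Adgre1 at 13.4 CPM in Spib_KO and 7.50 CPM in WT. Eosinophil markers reached at most 0.0583 CPM in Spib_KO and 0.167 CPM in WT. Of the endothelial markers, Pecam1, Cdh5 and Kdr had 9 reads or fewer in each library, while Tek had 44.3 CPM in Spib_KO and 37.6 CPM in WT. The part of these cells in the 3 genes was not tested.

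Gabpa encodes the DNA-binding subunit of GABP, which pairs with a beta subunit to drive nuclear genes for mitochondria. It had 550 reads in Spib_KO and 673 reads in WT, or 32.0 CPM and 37.4 CPM, a log2 ratio of -0.22 (-0.39 to -0.06). It overlaps Atp5j, a gene of ATP synthase, which had a log2 ratio of 0.32, and unstranded reads do not separate them where they overlap. Gabpb1, which encodes its partner, had 497 reads in Spib_KO and 428 reads in WT, a ratio of 0.28. Of 8 genes known as GABP targets in mitochondrial biogenesis all were measured and none was called, beside 4.51% of all measured genes. Their median was -0.08. The most abundant were Cox4i1 and Cox5b, subunits of cytochrome c oxidase, with log2 ratios of 0.15 and 0.32.

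Etv6, a repressor needed for blood formation, had 773 reads in Spib_KO and 667 reads in WT. Its level was 45.0 CPM in Spib_KO and 37.1 CPM in WT, a log2 ratio of 0.28 (0.13 to 0.43). The libraries differ here by about as much as for the gene at the upper quartile of all measured genes.

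Etv5, a factor of the PEA3 branch induced by growth factor signalling through ERK, was the only one of the 9 other genes to be called, and it lies at the edge of detection. It had 20 reads in Spib_KO and 90 reads in WT. Its level was 1.17 CPM (0.712 to 1.80) in Spib_KO and 5.0 CPM (4.02 to 6.15) in WT. The log2 ratio was -2.07 (-2.88 to -1.39), 4.21-fold lower in Spib_KO. As a difference of log2(value + 1) it was -0.96 from TPM and -0.84 from FPKM, short of 2-fold. It entered the comparison with no margin, since 90 reads is the lowest count that reaches 5 CPM in WT, and it dropped out under 6 of 11 alternative settings. Its length per read was steady, with an implied length of 3628 bases in Spib_KO and 3665 bases in WT.

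The other PEA3 genes were not called. Etv4 had 193 reads in Spib_KO and 103 reads in WT, a log2 ratio of 0.97 (0.62 to 1.33), the highest of the measured ETS genes and short of the call. Etv1 had 17 reads in Spib_KO and 25 reads in WT and was not measured. Summed per length, the 3 PEA3 genes had 7.61 TPM in Spib_KO and 5.67 TPM in WT.

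**Figure D3:**
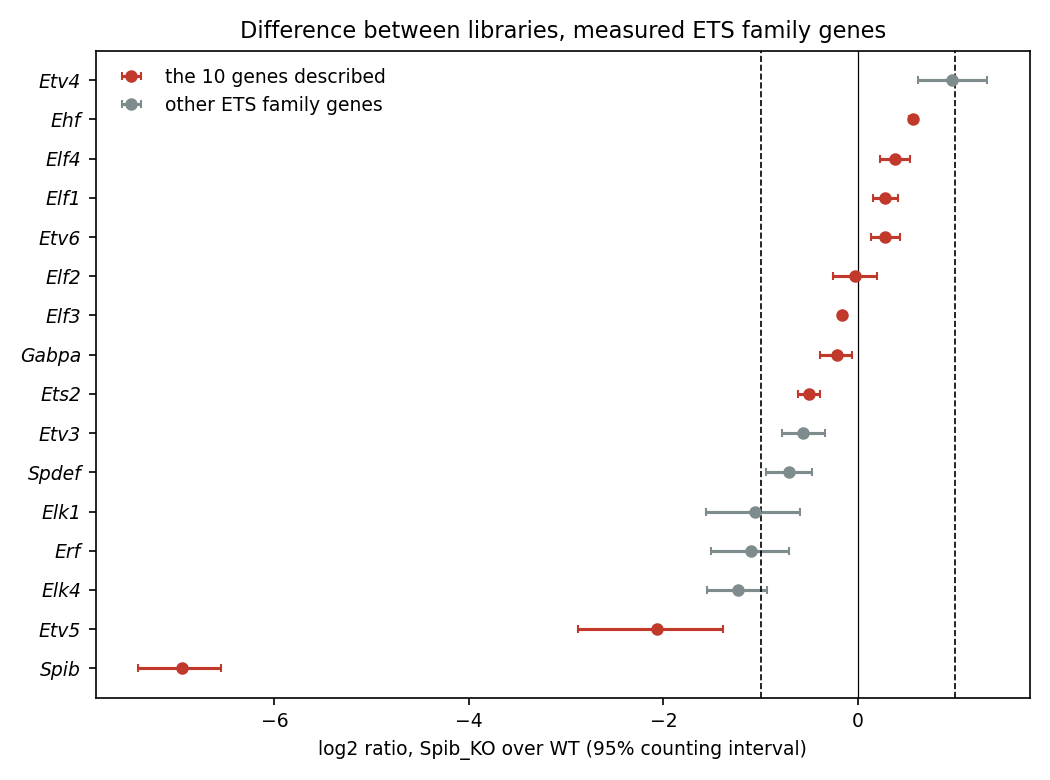
Log2 ratio of Spib_KO over WT for the 16 measured ETS family genes, from highest at the top to lowest, with 95% counting intervals; red marks the 10 genes described and grey the others. Dashed lines mark a 2-fold difference and the solid line no difference. The intervals of Spib and Etv5 alone lie wholly beyond 2-fold, while Elk1, Erf and Elk4 straddle the lower line and Etv4 the upper one.

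Of the 15 other ETS family genes in the table, 6 were measured and none was called, beside 4.51% of all measured genes. Of these 6, 5 had ratios below 0, and the median of the 6 was -0.89. Erf and Elk1 reached the 5 CPM minimum in WT alone, so their ratios could only lie below 0. Erf, a repressor that ERK phosphorylation moves out of the nucleus, had 77 reads in Spib_KO and 174 reads in WT, a log2 ratio of -1.10 (-1.51 to -0.71). Elk1 and Elk4, which bind serum response elements together with SRF, had ratios of -1.06 (-1.56 to -0.60) and -1.23 (-1.55 to -0.93). Their relative Elk3 had 4 reads in Spib_KO and 22 reads in WT and was not measured. Elk4 overlaps Mfsd4a in the annotation, whose ratio was 0.43, and its implied length was 3569 bases in Spib_KO and 3243 bases in WT. Etv3, a repressor of the ERF branch, had 280 reads in Spib_KO and 432 reads in WT, and Etv3l, its neighbour on chromosome 3, had 3 and 4 reads. Fev, a factor of serotonin neurons and enteroendocrine cells, had 2 reads in each library.

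Spdef, a factor that goblet and Paneth cells need to mature, had 227 reads in Spib_KO and 390 reads in WT, a log2 ratio of -0.71 (-0.95 to -0.47). Its level was 11.2 TPM in Spib_KO and 19.7 TPM in WT, more than that of 6 of the 10 genes described in WT. Over 6 goblet cell markers the summed level was 1321 CPM in Spib_KO and 2105 CPM in WT. Of these, 3 of 6 were lower, beside 2.18% of all measured genes. Fcgbp, the highest of them in WT, had 234 CPM in Spib_KO and 582 CPM in WT. Clca1, the highest of them in Spib_KO, went the other way, at 431 CPM in Spib_KO and 268.6 CPM in WT. Over 6 Paneth cell markers the sum was 892 CPM in Spib_KO and 2277 CPM in WT, with 5 of 6 lower and Defa24 the most abundant. The remaining marker, Ang4, had 82.75 CPM in Spib_KO and 49.23 CPM in WT. Over 7 enteroendocrine markers the sum was 33.2 CPM in Spib_KO and 133.5 CPM in WT, and 5 of the 6 measured were lower. Gcg and Tph1 had 0 reads in Spib_KO, and Chgb was the most abundant. The 5 lower ones, and the Paneth cell markers Mptx2 and Defa5, reached 5 CPM in WT alone, so they could be called lower but not higher. Over 7 enterocyte markers the sum was 15070 CPM in Spib_KO and 12720 CPM in WT, and none was called. Fabp1, the most abundant, had 10610 CPM in Spib_KO and 6968 CPM in WT, while 4 of the 7 had ratios below 0 and the median was -0.35. The part of these cells in the Spdef value was not tested.

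The order of the 10 genes per length was read with counting intervals of the TPM. In Spib_KO it was Elf3, Ehf, Ets2, Elf1, Etv6, Elf4, Gabpa, Elf2, Spib and Etv5. In WT it was Elf3, Spib, Ehf, Ets2, Elf1, Gabpa, Etv6, Elf4, Elf2 and Etv5. Neighbours whose intervals overlapped were Ets2 with Elf1 and Elf4 with Gabpa in Spib_KO, and Gabpa with Etv6 and Elf4 with Elf2 in WT. Apart from the fall of Spib, the exchange of places was limited to Gabpa, which stood above Etv6 and Elf4 in WT and below both in Spib_KO. There the levels were 8.74 TPM for Gabpa, 11.2 TPM for Etv6 and 9.39 TPM for Elf4 in Spib_KO, against 9.97, 8.90 and 7.25 TPM in WT.

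**Figure D4:**
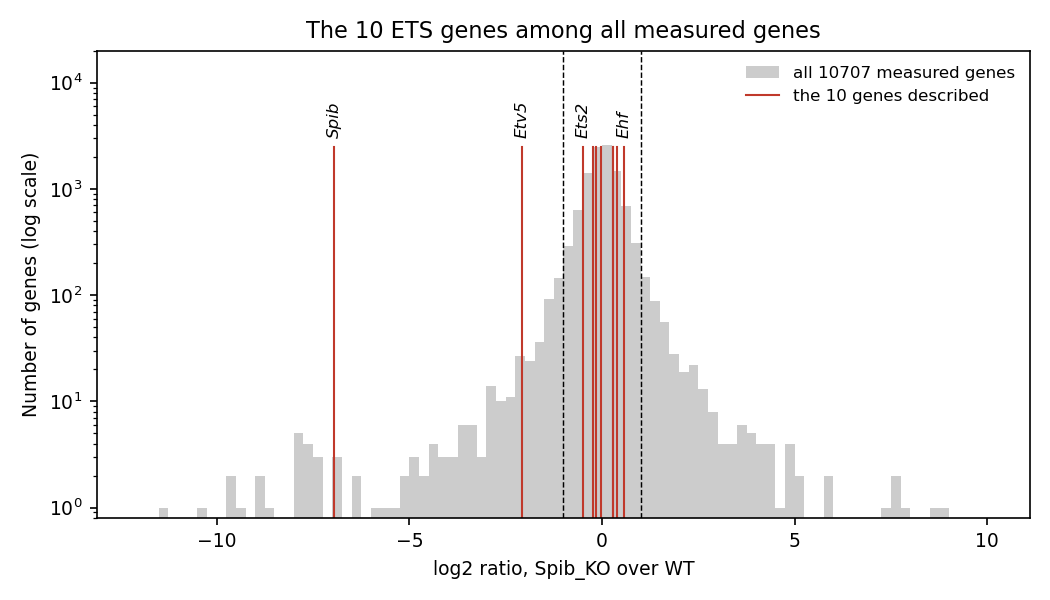
Number of genes (log axis) by log2 ratio of Spib_KO over WT for the 10707 measured genes in grey, with the 10 ETS genes as red lines and dashed lines at a 2-fold difference. Spib lies at -6.95 and Etv5 at -2.07, while the other 8 lie between -0.50 for Ets2 and 0.57 for Ehf, inside the bulk of all genes.

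With 2 libraries the likeness of another gene to Spib can be measured only as the difference in log2 ratio. Among 7694 other genes at 20 CPM or more in at least 1 library, the 5 closest to Spib were Defa2, Defa21, Col15a1, Defa22 and Cck, with ratios of -6.47, -6.37, -7.86, -5.99 and -7.93. The 3 alpha-defensins are Paneth cell products that share reads with one another, Col15a1 is a basement membrane collagen and Cck a gut hormone. Defa2 had 17 reads in Spib_KO and 1621 reads in WT. Cck had 1 read in Spib_KO and 379 reads in WT, with a counting interval of -13.8 to -6.01.

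Genes that act with or upstream of the ETS proteins were also read, beside the 4.51% of all measured genes that were called. At that share, few or no calls in lists this short do not set them apart from other genes. Of 11 partner protein genes with a row, 8 were measured and none was called, with a median of 0.04 that was -0.20 with no filter and 0.22 from FPKM. The most abundant were Runx1, a partner of ETS proteins on blood cell promoters, and Irf8, an interferon regulatory factor that binds DNA with PU.1 and Spi-B, with log2 ratios of -0.22 and -0.20. Srf, which encodes the partner of Elk1 and Elk4, had 862 reads in Spib_KO and 459 reads in WT, a ratio of 0.98 (0.81 to 1.14), on the opposite side of 0 from the 2 Elk genes. Of 18 genes of the Ras to ERK cascade 17 were measured and none was called, with a median of 0.18. Map2k2, which encodes the kinase MEK2, and Araf, which encodes a Raf kinase, were the most abundant with ratios of -0.20 and 0.20.

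Of 15 genes that respond to or limit ERK signalling 9 were measured and 1 was lower, with a median of 0.07 that was -0.13 from FPKM. It was Ier3, an immediate early gene, which had 3.09 CPM in Spib_KO and 10.9 CPM in WT, a log2 ratio of -1.81 (-2.28 to -1.37). Dusp6, an ERK phosphatase, and Spry2, an inhibitor of receptor signalling, are feedback genes that respond to the same route as Etv5. Dusp6 had 632 reads in Spib_KO and 612 reads in WT, and Spry2 had 488 reads in Spib_KO and 455 reads in WT, with ratios of 0.11 and 0.17. Other measured genes of the list lay further from 0, with Fosl1 at -0.82, Phlda1 at 0.51 and Spred1 at 0.61. In all, 4 of the 9 were below 0 and 5 above. What underlies the Etv5 value was not tested.

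Of 11 genes on the route by which RANK induces Spib in M cells 10 were measured and none was called, with a median of -0.01. The kinase genes Ikbkb and Chuk were the most abundant, with ratios of -0.40 and 0.11. Tnfrsf11a, which encodes RANK itself, had 18.7 CPM in Spib_KO and 9.17 CPM in WT, a log2 ratio of 1.03 (0.75 to 1.31), not called because the interval reaches below 2-fold. Of 11 M cell genes with a row, 6 were measured and 1 was lower, Sox8, a transcription factor gene of maturing M cells, which had 4 reads in Spib_KO and 118 reads in WT (-4.65, interval -6.71 to -3.42). Their median was -0.31, and it was 0.25 at a 20 CPM minimum and 0.45 to 0.47 from deposited TPM or FPKM, on the other side of 0. The genes of the list that were measured differed between these settings. Of 10 genes in the table known as targets of PU.1 and Spi-B in B cells 3 were measured and none was called. Their median was -0.17, and it was -1.39 with no filter, -0.38 at a 20 CPM minimum and -0.40 from TPM or FPKM. Plcg2, a phospholipase of the B cell receptor route that tuft cells also express, had a ratio of -0.06, and Blnk, its adaptor, had 63.1 CPM in Spib_KO and 103 CPM in WT, a ratio of -0.70 (-0.81 to -0.59).

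Promoter letters were read for the 9 genes with a RefSeq window of 250 bases before to 50 bases after the start on GRCm38.p6, 13 windows in all. The words searched on both strands were GGAAGT, an ETS core with its flank, and GAGGAAGT, which contains the first and is typical of PU.1 and Spi-B sites. GGAAGT was found in 4 of the 13 windows, those of Elf1, Elf2, Etv5 and Gabpa, against 23.8% of all 32851 windows. GAGGAAGT was found in 1, that of Gabpa, against 3.20% of all windows. The Etv5 and Gabpa matches are shown, as the called gene and the gene with the longer word, with the match in capitals; the Etv5 stretches, on the minus strand, are at chr16:22438568-22438597 and chr16:22438349-22438378 and the Gabpa stretch, on the plus strand, at chr16:84835000-84835029.
Etv5 upstream: tgggaattgggtGGAAGTgtgtcttgtttt
Etv5 at the start: cgacgacacaaaGGAAGTggtttaaactcc
Gabpa: ccaaacaggagGAGGAAGTggagggtaagt
A match describes these letters and is not a binding site. No such word was found in the Spib window.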

How the data were processed

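RNA was extracted with TRIzol and amplified into cDNA in the SMART-seq manner, and libraries were made with a transposase, per the labels' protocols, so reads carry no strand. HISAT, Bowtie2 2.2.3 and build mm10 are named in the submitters' processing notes. The counter and annotation used are not named, that is, not given in the sources used here. The authors deposited counts, FPKM and TPM for every gene of each library, per the file headers. These deposited counts are expected counts (18.6% not whole in Spib_KO and 19.0% in WT) and were rounded.

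Libraries were scaled with TMM in edgeR 4.0.16 (R 4.3.3), giving effective totals of 17161039 for Spib_KO and 17996059 for WT. Log2 ratios used a prior count of 0.5 and intervals were 95% Clopper-Pearson intervals of the pair of counts. Single CPM values have Poisson intervals. Tables were computed with pandas 2.3.3, scipy 1.17.1 and numpy 2.4.6 in Python 3.11.15, coding sequences were translated with Biopython 1.88, and the size rule was tested on simulated data. With 1 library per genotype, a rule of size stood in for a test. Alternatives were DESeq2 1.42.0 size factors, total counts, upper quartile scaling, other filters, a prior count of 5, the point estimate, thinning, and log2 differences of deposited TPM and FPKM.

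The 10 genes and the gene lists were chosen with earlier results of these data known. Named genes were the 10, the other ETS genes, from each list no more than 4 called genes or, with none called, its 2 most abundant, the 5 genes closest to Spib, overlapping genes and the most abundant marker of each cell type. Srf, Gabpb1, Tnfrsf11a, Dusp6, Spry2, Mybpc2, Pold1, Pax5, Ms4a1, Cd22, Klk1 and the markers named because they had few or 0 reads were chosen after their values were seen. So were Gnat3, Bmx, Clca1, Ang4, Spred1, Fosl1 and Phlda1. The helix stretches were located by translating the coding sequence of 1 transcript per gene. Genes not in the table, such as Erg, Etv2 and Gp2, were not analysed here.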

Additional observations from a re-analysis of the deposited data

How the results depend on the processing

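No paired analysis was possible because each genotype has 1 library. Across 11 alternatives none of the 10 genes changed the sign of its log2 ratio. Spib was called lower under all of them, at -6.96 to -6.82 from counts and at -6.98 with log2(TPM + 0.1), and as a log2(value + 1) difference it was -6.22 for TPM and -6.06 for FPKM. The number of called genes among the 10 was 1 in place of 2 with upper quartile scaling, a 20 CPM minimum, thinning of the deeper library, both TPM settings and FPKM, where Etv5 fell below the expression minimum; its ratio was -0.96 with TPM + 1, -1.86 with TPM + 0.1 and -0.84 with FPKM + 1. Over all genes, 250 were higher and 233 lower; without a filter these were 595 and 716, at a 20 CPM minimum 101 and 106, by the point estimate 425 and 419, and 165 were higher with FPKM. The median of the 15 measured ETS genes without Spib was -0.22, and it was -0.49 without a filter and 0.01 with FPKM. Medians of 4 lists also moved, under settings that change which genes of a list are measured. Partner proteins were at -0.20 without a filter and 0.22 with FPKM, and ERK response genes at -0.13 with FPKM. M cell genes were at 0.25 at a 20 CPM minimum and at 0.46, 0.47 and 0.45 with TPM + 1, TPM + 0.1 and FPKM. B cell targets were at -1.39 without a filter, -0.38 at 20 CPM and -0.40 with TPM or FPKM. At 20 CPM the M cell list kept only Marcksl1 and Pglyrp1, and the B cell targets only Blnk and Plcg2. As a share of family reads, not per length, Spib held 16.1% in WT, Elf3 55% in Spib_KO and 51.8% in WT, and Ehf 27.1% in Spib_KO and 15.4% in WT. Depth limits the genes under 5 CPM, among them Etv5 in Spib_KO.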
